A study of Homo sapiens with 6 samples.

Results

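Retained-intron transcripts are annotated isoforms that keep intron sequence which the coding transcripts of the same gene splice out. The entries with FPKM values (fragments scaled for transcript length and sequencing depth) were taken, and those whose transcript type in GENCODE 29, a public annotation of human genes, is retained_intron were kept. That left 15830 of 62250 entries, in 5795 genes, of which 15584 entries belong to protein-coding genes. There were 2103 genes with 1 such transcript, 1323 with 2, 864 with 3 and 1505 with 4 or more, up to 20 in 1 gene. Each was compared by its FPKM and by its share of the summed FPKM of all listed transcripts of its gene.

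In human cells introns are removed by the spliceosome, which reads a donor site at the 5′ end of the intron and an acceptor site at its 3′ end. Transcripts that keep an intron are often held in the nucleus or, once exported, degraded by nonsense-mediated decay, because the intron usually brings a premature stop codon. Some are detained in the nucleus and spliced later, a route known for transcripts of the CLK kinases, which phosphorylate SR proteins, the splicing factors that help the spliceosome find exons. Genes of splicing factors are known for regulated retention of their own introns.

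RNA came from NALM6, a human cell line from acute lymphoblastic leukemia of B-cell precursors, kept in RPMI 1640 medium with 10% FBS. There were 3 libraries of cells treated with verteporfin for 48 h and 3 libraries of cells given DMSO for 48 h. Verteporfin is a porphyrin known to keep the coactivator YAP from TEAD transcription factors, and the study asked how genes of the Hippo pathway compare after and before the drug. The labels give the drug at 0.6 mmol/L, a high figure for cultured cells, so the unit is uncertain. Whether the libraries of a group come from separate cultures is not stated, so the spread behind every p-value may be technical. Spearman correlations of log2(FPKM + 1) over transcripts were 0.441 to 0.580 within verteporfin and 0.549 to 0.601 within DMSO. Between the treatments they were 0.425 to 0.603, so the ranges overlapped. Library 2 of both groups stood apart in the part of FPKM held by protein_coding transcripts. It was 70.4% with verteporfin and 68.2% with DMSO, against 59.5% to 63.7% in the other libraries. All 12 markers of B-cell precursors that were looked up averaged 1 FPKM or more, with a summed level of 1210 to 1937 FPKM in verteporfin libraries and 1556 to 1912 FPKM in DMSO libraries. None of the markers of T, erythroid, epithelial or fibroblast cells was listed, and of 4 myeloid markers only LYZ was, at 1.33 to 2.05 FPKM with verteporfin and 2.01 to 2.56 FPKM with DMSO. Read depth is unknown, because the FPKM entries hold no counts. The mean reaches 0.5 FPKM in at least 1 group for every listed transcript, so a transcript listed only for its level in 1 group had to differ between them. In bulk RNA, fewer cells of a kind and less RNA per cell cannot be told apart.

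The annotated structures bore out the label for most of the transcripts. Of the 15830, 15420 (97.4%) hold at least 1 base that lies in an intron of a coding transcript of the gene and in no coding transcript's exon, with a median of 273 such bases. A whole intron sits inside an exon in 30.7% of them, 10397 hold none but start or end inside an intron, and 572 do neither. They are short, with a median of 738 bases, against 1753 bases for the protein_coding transcripts of the table. The 6967 different introns held whole had a median length of 246 bases, and 57.1% were no longer than 300 bases, against 19.0% of the 102146 introns of the coding transcripts of these genes. Of the introns held whole, 97.5% start with GT and end with AG, and 12 start with AT and end with AC, the ends typical of many introns of the minor spliceosome. The FPKM of a transcript also covers exons that it shares with coding transcripts, so it is not a count of reads inside an intron.

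The intron stretches of 13 of the transcripts described below are shown because the results turn on them or, for RPL24, as the short intron of an abundant ribosomal protein transcript. They were chosen after their values were seen. Each was read 5′ to 3′ on the gene's strand from the GENCODE 29 transcript sequences, and the positions are those of that annotation on GRCh38, not of the build behind the FPKM values. For introns held whole the first 6 and last 3 intron bases are in capitals. For transcripts that end inside an intron, 20 exon bases come first and the first 6 intron bases are in capitals. For PKM, whose transcript starts inside an intron, the last 3 intron bases are in capitals and 20 exon bases follow. The RPL11 transcript was matched by its identifier without the version, which differs in GENCODE 29. The first 7 belong to genes in which retained-intron FPKM was lower with verteporfin on average, the next 3 to ribosomal protein genes, and the last 3 to transcripts with higher FPKM with verteporfin.
AHSA1 ENST00000554156, chr14:77462223-77462319, plus strand: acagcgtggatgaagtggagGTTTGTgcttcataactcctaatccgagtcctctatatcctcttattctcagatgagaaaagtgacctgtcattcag
PKM ENST00000568743, chr15:72209840-72210026, minus strand: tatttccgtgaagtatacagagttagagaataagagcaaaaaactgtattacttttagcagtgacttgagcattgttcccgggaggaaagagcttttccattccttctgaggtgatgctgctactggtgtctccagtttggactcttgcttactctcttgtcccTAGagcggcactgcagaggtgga
DIMT1 ENST00000509182, chr5:62392812-62392945, minus strand: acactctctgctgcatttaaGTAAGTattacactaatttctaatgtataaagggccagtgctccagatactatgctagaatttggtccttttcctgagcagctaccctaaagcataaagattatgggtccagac
GAPDH ENST00000474249, chr12:6536818-6536919, plus strand: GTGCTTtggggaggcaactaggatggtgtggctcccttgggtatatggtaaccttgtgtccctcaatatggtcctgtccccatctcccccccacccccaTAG
RPS2 ENST00000533872, chr16:1962910-1963148, minus strand: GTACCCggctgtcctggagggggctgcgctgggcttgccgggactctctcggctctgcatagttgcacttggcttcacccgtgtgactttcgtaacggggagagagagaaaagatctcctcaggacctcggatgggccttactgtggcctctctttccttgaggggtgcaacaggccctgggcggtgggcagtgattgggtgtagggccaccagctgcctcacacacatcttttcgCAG
C19orf66 ENST00000585919, chr19:10091354-10091475, plus strand: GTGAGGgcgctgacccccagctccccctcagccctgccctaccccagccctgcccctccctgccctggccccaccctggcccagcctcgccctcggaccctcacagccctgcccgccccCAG
LIN37 ENST00000587108, chr19:35754320-35754392, plus strand: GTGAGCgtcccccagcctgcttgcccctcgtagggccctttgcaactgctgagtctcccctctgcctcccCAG
RPL11 ENST00000482370, chr1:23695889-23695946, plus strand: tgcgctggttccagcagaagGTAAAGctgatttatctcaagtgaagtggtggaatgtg
RPL13A ENST00000479992, chr19:49490298-49490474, plus strand: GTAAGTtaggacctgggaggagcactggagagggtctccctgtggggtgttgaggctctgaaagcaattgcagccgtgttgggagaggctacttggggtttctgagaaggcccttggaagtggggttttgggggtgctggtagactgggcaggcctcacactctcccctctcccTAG
RPL24 ENST00000464595, chr3:101686558-101686671, minus strand: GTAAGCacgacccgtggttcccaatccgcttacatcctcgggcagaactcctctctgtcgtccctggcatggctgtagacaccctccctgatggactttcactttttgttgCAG
DDIT4 ENST00000471240, chr10:72274402-72274635, plus strand: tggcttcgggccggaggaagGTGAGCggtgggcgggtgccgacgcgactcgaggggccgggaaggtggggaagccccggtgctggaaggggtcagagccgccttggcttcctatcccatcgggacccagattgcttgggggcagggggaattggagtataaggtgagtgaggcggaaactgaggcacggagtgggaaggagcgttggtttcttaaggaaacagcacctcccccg
PMM1 ENST00000485648, chr22:41584059-41584280, minus strand: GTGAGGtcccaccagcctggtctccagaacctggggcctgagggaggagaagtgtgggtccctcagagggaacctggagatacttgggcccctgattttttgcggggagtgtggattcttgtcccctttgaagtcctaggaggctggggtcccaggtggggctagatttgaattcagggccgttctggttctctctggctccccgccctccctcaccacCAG
MTO1 ENST00000370308, chr6:73479845-73479935, plus strand: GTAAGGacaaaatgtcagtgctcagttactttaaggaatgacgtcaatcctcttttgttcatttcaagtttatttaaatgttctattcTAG

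Retained-intron transcripts took a smaller part of all FPKM with verteporfin. They held 9.91%, 10.1% and 10.6% of the FPKM in the 3 verteporfin libraries, against 11.4%, 11.8% and 12.1% in the 3 DMSO libraries. All 3 verteporfin libraries lay below all 3 DMSO libraries. The means were 10.2% ± 0.344 with verteporfin and 11.8% ± 0.318 with DMSO (SD, n = 3 each), a difference of −1.54 percentage points. An exact 2-sided permutation test gave p = 0.1, which with 3 libraries a group is its lower limit, and an adjusted p of 0.3 over the 6 transcript classes compared. The share of lincRNA transcripts was 1.49 points higher, at 4.88% ± 0.540 with verteporfin against 3.39% ± 0.119 with DMSO (SD, n = 3 each), also without overlap and at an exact permutation p of 0.1.

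Within genes, no such separation was seen. Genes that list both kinds of transcript together took 45.8% ± 2.03 of the FPKM with verteporfin and 50.4% ± 1.42 with DMSO (SD, n = 3 each), again with no overlap (exact permutation p of 0.1). Within those genes, the retained-intron share was 22.5%, 21.1% and 23.0% with verteporfin and 23.3%, 22.7% and 23.6% with DMSO, so the groups overlapped (exact permutation p of 0.2). The median gene had a summed retained-intron share of 21.2%, 19.4% and 20.6% with verteporfin and of 20.3%, 20.02% and 20.4% with DMSO (exact permutation p of 0.8). The share of retained-intron transcripts listed at 0 was also lower, 2.48% ± 1.26 with verteporfin and 6.29% ± 1.82 with DMSO (SD, n = 3 each), as was that of protein_coding transcripts, 10.3% ± 3.66 with verteporfin and 18.6% ± 2.71 with DMSO. The part of these zeros in the result was not tested.

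**Figure D1:**
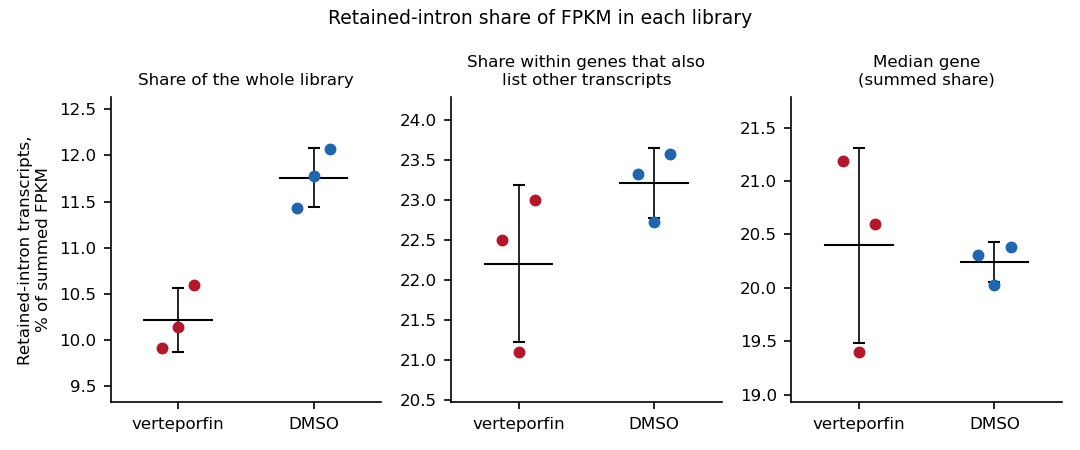
Retained-intron transcripts as percent of summed FPKM, 1 point per library, with the mean (line) and SD (bar) of 3 libraries for verteporfin (left) and DMSO (right); the vertical axes do not start at 0. The left panel shows the whole library, where the groups do not overlap (means of 10.2% and 11.8%), the middle panel only genes that also list other transcripts, and the right panel the median gene, where the groups overlap.

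The difference of −1.54 points can be divided exactly between a part from shares within genes and a part from the level of each gene. Shares within genes gave −0.348 points and gene levels −1.20 points. The level of a gene includes its retained-intron transcripts, so a change in those alone falls partly under gene level. The part from gene levels is thus not a measure of the other transcripts. Lower contributions came from 3121 genes, which summed to −2.84 points, and higher ones from 2674 genes, which summed to 1.296 points. The 10 genes with the largest lower contribution gave −0.458 points and the first 100 gave −1.04 points. The 343 genes whose summed level averaged 100 FPKM or more held −0.720 points, and the 2258 genes between 20 and 100 FPKM held −0.762 points.

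PKM, which encodes the pyruvate kinase of glycolysis, carried the largest single part, −0.126 points. Its 9 retained-intron transcripts summed to 303, 130 and 302 FPKM with verteporfin and to 911, 516 and 870 FPKM with DMSO. The groups did not overlap. Its other transcripts, at 270, 149 and 80.1 FPKM with verteporfin and 169, 231 and 195 FPKM with DMSO, did overlap. The retained-intron share of PKM overlapped too, with verteporfin library 3 above DMSO library 2. GAPDH, another glycolytic enzyme, gave −0.0889 points, PTMA, which encodes the chromatin-associated prothymosin alpha, −0.0619 points, and RPS2, of the small ribosomal subunit, −0.0453 points. TUBA1B, an alpha-tubulin, OAZ1, the antizyme that restrains polyamine synthesis, AHSA1, an activator of the HSP90 chaperone, TRIM28, a transcriptional corepressor, UNG, a DNA repair glycosylase, and RPL35, of the large ribosomal subunit, made up the rest of the first 10, at −0.0365 to −0.0142 points. Among these 10 genes, the retained-intron part of the library did not overlap between groups for PKM, AHSA1 and RPL35, all lower with verteporfin. Several of the 10 contributions moved when 1 library was left out, and that of UNG changed sign. UNG held 0.0626% of DMSO library 3, against 0.00813% and 0.00204% of the other DMSO libraries, and without library 3 its contribution was 0.000894 points, of the opposite sign. The PTMA contribution was −0.121 points without DMSO library 2, −0.0286 points without DMSO library 1 and −0.0363 points without DMSO library 3. That of TRIM28 was −0.00832 points and that of OAZ1 −0.0171 points without DMSO library 3, that of GAPDH −0.0502 points without verteporfin library 3, and that of RPS2 −0.0286 points without verteporfin library 2. The largest contribution the other way was that of RPL4, 0.0415 points, followed by P4HB, an ER protein disulfide isomerase, at 0.0180 points and SNHG3, a host of small nucleolar RNAs, at 0.0155 points. Without verteporfin library 2 the RPL4 value was 0.0256 points and the SNHG3 value 0.00219 points, and without DMSO library 1 the RPL4 value was 0.0203 points. The SNHG3 value was 0.0245 points without DMSO library 2. Nearly all of the RPL4 part, 0.0407 points, came from the gene's level, which includes these transcripts. The retained-intron share of RPL4 was 92.1%, 94.1% and 92.6% with verteporfin and 90.7%, 93.2% and 92.8% with DMSO.

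**Figure D2:**
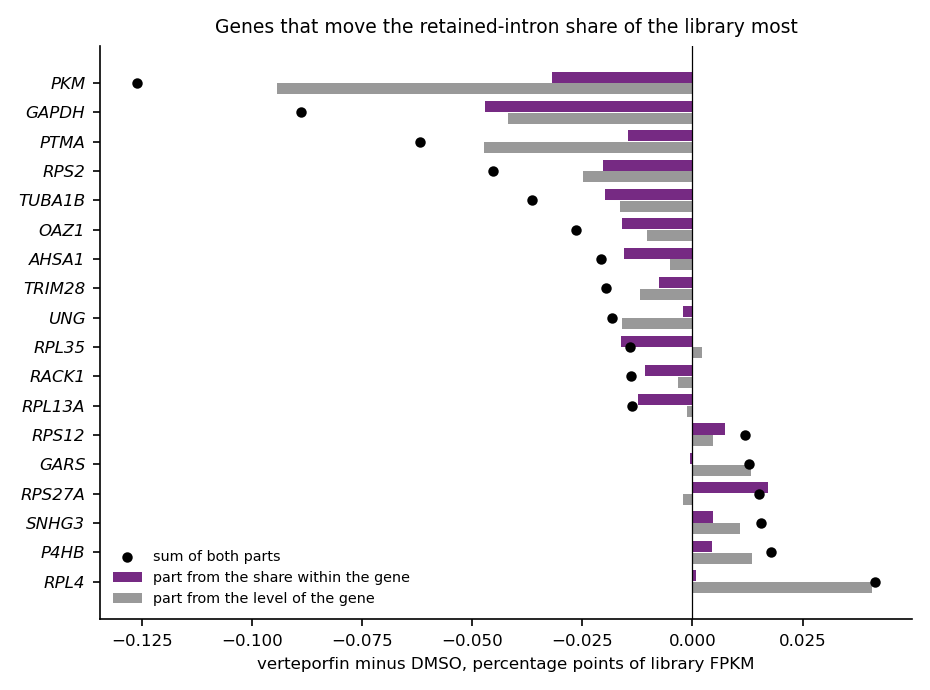
Contribution of single genes to the difference in the retained-intron share of the library (horizontal axis, verteporfin minus DMSO, percentage points), for the 12 genes of largest lower and the 6 of largest higher contribution. Bars split each black point into a part from the retained-intron share within the gene and a part from the gene's level. That level includes the retained-intron transcripts. For PKM the parts are −0.0319 and −0.0943 points, and for RPL35 only the share within the gene is below 0.

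By FPKM, 1 of 14361 retained-intron transcripts that averaged 0.5 FPKM or more passed the test (limma on log2 of FPKM + 1, adjusted over all 55148 transcripts tested, threshold 0.05), the AHSA1 transcript ENST00000554156. Over all transcripts tested, 0.00363% were called lower and 0.0272% higher. The AHSA1 transcript has 588 bases in 3 exons on chromosome 14. Its last 77 bases, shown above from the donor on, lie in an intron. It was at 0.001, 0.037 and 0.002 FPKM with verteporfin and at 109, 26.9 and 105 FPKM with DMSO. It was thus close to 0 in every verteporfin library, and DMSO library 2 was the lowest of the DMSO libraries. On the log2 scale it fell by 6.08 ± 0.58 (SE; limma, adjusted p of 0.034) and was lower in 3 of 3 verteporfin libraries. With verteporfin it lay below the 0.5 FPKM that every listed transcript averaged in at least 1 group. It was thus listed only for its DMSO level and had to differ, so the call is a description. The call did not hold when any 1 library was left out, where the adjusted p was 0.0701 to 0.275 by limma. As a share of the gene, the transcript took 0.00%, 0.03% and 0.00% with verteporfin and 47.7%, 15.5% and 47.9% with DMSO, a difference of −37.0 points that did not pass (limma, adjusted p of 0.741).

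The 3 other retained-intron transcripts of AHSA1 summed to 4.08, 3.73 and 4.39 FPKM with verteporfin and 6.66, 14.7 and 12.1 FPKM with DMSO, also lower without overlap. The transcripts of other types summed to 78.7, 141 and 121 FPKM with verteporfin and 112, 132 and 102 FPKM with DMSO, and those groups overlapped. All 4 retained-intron transcripts together bring the summed retained-intron FPKM to 4.09, 3.77 and 4.39 with verteporfin, against 115, 41.6 and 117 with DMSO.

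At an unadjusted p under 0.05, limma found 352 retained-intron transcripts (2.45%) lower and 300 (2.09%) higher with verteporfin by FPKM. Of all transcripts tested, 2.97% were lower and 3.58% higher. Without overlap between the groups, 1044 (7.27%) were lower and 666 (4.64%) higher, against 6.81% lower and 5.47% higher of all transcripts tested. Their median log2 fold change was −0.04, against 0.00 over all transcripts. As shares of their genes, 0 of 15634 passed by limma. At an unadjusted p under 0.05 by limma, 241 (1.54%) were lower and 385 (2.46%) higher. Of all transcripts, 2.10% were lower and 3.42% higher. Without overlap, 924 (5.91%) had a lower share and 972 (6.22%) a higher one, against 5.38% and 6.48% over all transcripts. By overlap, retained-intron shares thus lay near the background in both directions. By unadjusted p under 0.05 (limma), retained-intron transcripts lay below it, in FPKM and in share.

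None of the 10 retained-intron transcripts of highest mean FPKM passed. The GAPDH transcript ENST00000474249, whose retained intron of 102 bases is shown above, was at 1078, 810 and 419 FPKM with verteporfin and 1190, 1225 and 925 FPKM with DMSO. Its FPKM overlapped between the groups, but its share of the gene, 73.8%, 78.3% and 42.0% with verteporfin and 83.8%, 81.7% and 81.9% with DMSO, did not. The PKM transcript ENST00000568743, which begins with 167 intron bases, was at 31.4, 37.2 and 144 FPKM with verteporfin and 503, 200 and 513 FPKM with DMSO. All 3 verteporfin libraries lay below all 3 DMSO libraries, and the log2 fold change was −2.73 ± 0.63 (SE; limma, adjusted p of 0.448). A second PKM transcript, ENST00000563275, was at 122, 17.3 and 127 FPKM with verteporfin and 275, 141 and 208 FPKM with DMSO, also without overlap (limma, log2 fold change of −1.61, adjusted p of 0.759). As shares of the gene, both PKM transcripts overlapped. ENST00000568743 took 5.47%, 13.4% and 37.8% with verteporfin and 46.6%, 26.8% and 48.2% with DMSO. The RPS2 transcript ENST00000533872, with the retained intron of 239 bases shown above, was at 340, 136 and 407 FPKM with verteporfin and 563, 286 and 523 FPKM with DMSO, and its groups overlapped. So did those of ACTB, which encodes beta-actin, PTMA, RPL4, the glycolytic enzyme ENO1, RPS18 and SNHG3. The share of the SNHG3 transcript ENST00000437681 was higher without overlap, at 92.6%, 81.8% and 81.6% with verteporfin and 69.2%, 79.0% and 71.3% with DMSO. The RPL4 transcript ENST00000561775 is listed at 0 in DMSO library 1 and lay between 198 and 374 FPKM in the other 5 libraries.

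**Figure D3:**
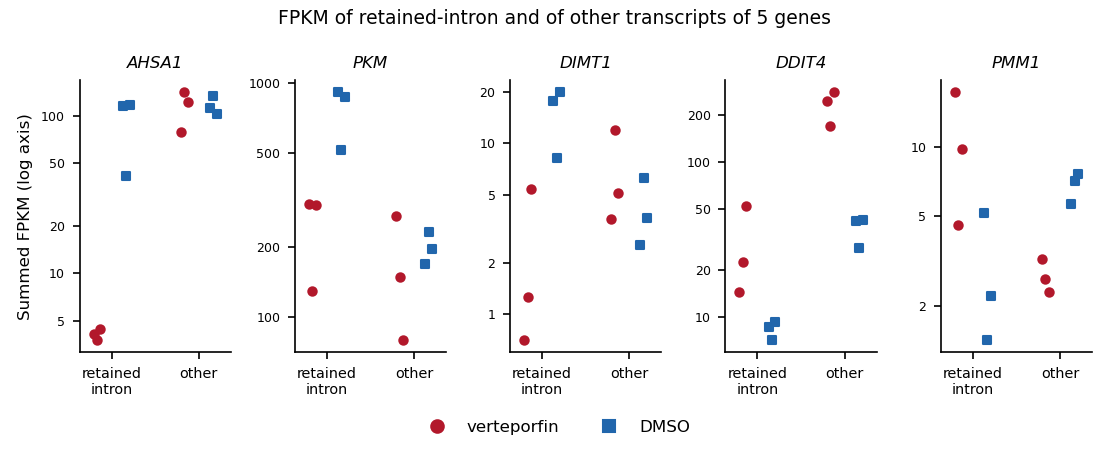
Summed FPKM of the retained-intron transcripts (left of each panel) and of all other listed transcripts (right) of 5 genes, 1 point per library on a log axis, verteporfin as circles and DMSO as squares to their right. In AHSA1 and DIMT1 retained-intron FPKM is lower with verteporfin while the other transcripts overlap; in DDIT4 both are higher with verteporfin, the other transcripts by more.

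Summed over each gene, the retained-intron share could be tested in 5599 genes whose sum averaged 1 FPKM or more. None passed: 0 were called by limma, and 164 (2.93%) were lower and 213 (3.80%) higher at an unadjusted p under 0.05. Without overlap between the groups, 350 genes (6.25%) had a lower share and 339 (6.05%) a higher one with verteporfin, and the median difference was −0.04 points. Shares of processed_transcript isoforms in 4395 genes, by the same rule, were lower in 4.71% and higher in 7.19%, and those of protein_coding isoforms in 7294 genes were lower in 6.54% and higher in 5.94%. In the genes with a lower share the difference ran from −80.2 to −0.345 points, with a median of −14.1 points. These genes were picked for a separated share, so the counts within them are a description. In 145 of the 350 the retained-intron FPKM itself was lower without overlap, and in 53 the FPKM of the other transcripts was higher. In 6 both held, and in 158 neither measure alone separated the groups. Over all 5599 genes, 7.00% had lower retained-intron FPKM and 5.18% higher FPKM of the other transcripts without overlap. Of the 339 genes with a higher share, 153 had higher retained-intron FPKM and 74 lower FPKM of the other transcripts.

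The 15 genes with the largest lower share among those of at least 5 FPKM without overlap were SEPT5, MAP3K14, SECISBP2L, DIMT1, RAB5IF, MFGE8, TMEM129, SLC41A3, ARL6IP5, WASHC4, KIF3C, AHSA1, CALML6, C19orf66 and LIN37. None passed the test, with adjusted p of 0.497 to 0.716 by limma, and their differences ran from −53.3 to −37.7 points. They were picked for separated groups, so that separation is a description. DIMT1, which encodes a methyltransferase of ribosomal RNA, had a retained-intron share of 16.5%, 9.59% and 51.4% with verteporfin and 87.3%, 56.6% and 84.4% with DMSO. Most of the DMSO value was ENST00000509182, which ends 114 bases into an intron and was at 0.068, 0.552 and 4.87 FPKM with verteporfin and 17.3, 7.82 and 19.0 FPKM with DMSO. The other DIMT1 transcripts, at 3.61, 11.9 and 5.10 FPKM with verteporfin and 2.56, 6.29 and 3.65 FPKM with DMSO, overlapped.

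Retained-intron FPKM was likewise lower without overlap while the other transcripts overlapped in MAP3K14, the kinase NIK of noncanonical NF-kB signaling, SECISBP2L, RAB5IF, TMEM129, an ER-resident ubiquitin ligase, SLC41A3, a member of a magnesium transporter family, and KIF3C, a kinesin motor. TMEM129 had a share of 5.0%, 6.01% and 6.56% with verteporfin and 68.8%, 42.5% and 41.7% with DMSO. RAB5IF retained-intron FPKM was 0.385, 1.29 and 2.12 with verteporfin and 22.5, 11.4 and 9.68 with DMSO. In ARL6IP5, an ER membrane protein, and C19orf66, an interferon-induced antiviral factor, the retained-intron FPKM was lower and the other FPKM higher, both without overlap. The C19orf66 transcript ENST00000585919, whose retained intron of 122 bases is 77.9% G and C, was at 3.61, 2.98 and 6.44 FPKM with verteporfin and 11.6, 9.76 and 11.0 FPKM with DMSO.

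In 3 of the 15 genes the lower share went with higher FPKM of the other transcripts, and the retained-intron FPKM was not lower. MFGE8, a secreted protein that binds phosphatidylserine, had other transcripts at 10.5, 3.24 and 4.06 FPKM with verteporfin and 0.662, 0.641 and 0.041 FPKM with DMSO, while its retained-intron FPKM overlapped. SEPT5, a septin, showed the same order, and its other transcripts were listed at 0 in DMSO libraries 2 and 3. CALML6, a calmodulin-like protein, had higher FPKM of both kinds with verteporfin and other transcripts also listed at 0 in those 2 libraries. The other transcripts of MFGE8 and CALML6 averaged only 0.448 and 0.372 FPKM with DMSO. They were thus listed only for their verteporfin level and had to differ. In WASHC4, of the WASH complex of endosomes, and LIN37, of the cell cycle complex DREAM, neither measure alone separated the groups. The LIN37 transcript ENST00000587108 was listed at 0 in verteporfin libraries 1 and 3 and was at 0.049 FPKM in library 2. With DMSO it had 5.22, 2.82 and 1.89 FPKM. It was listed only for its DMSO level and had to differ, so its values are a description.

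The 8 genes with the largest higher share by the same rule were TSEN15, PMM1, RNF114, CES2, BDH2, TOX4, MTO1 and HAUS5, with differences of 36.6 to 51.8 points and adjusted p of 0.594 to 0.710 by limma, so none passed. PMM1, a phosphomannomutase, had a retained-intron share of 84.4%, 63.1% and 80.9% with verteporfin and 47.6%, 16.7% and 22.4% with DMSO. Its transcript ENST00000485648, with the retained intron of 222 bases shown above, was at 13.8, 3.21 and 7.69 FPKM with verteporfin and listed at 0 in all 3 DMSO libraries. The same held for the MTO1 transcript ENST00000370308, at 3.33, 8.61 and 1.66 FPKM with verteporfin. It was listed at 0 in all 3 DMSO libraries. MTO1 encodes an enzyme that modifies mitochondrial tRNA. The PMM1 and MTO1 transcripts were thus listed only for their verteporfin level and had to differ, so their separation is a description. RNF114, a ubiquitin ligase, had higher retained-intron FPKM, at 10.3, 14.4 and 16.2 with verteporfin and 4.17, 6.88 and 5.85 with DMSO. Its other transcripts were lower, at 12.2, 3.87 and 8.76 FPKM with verteporfin and 17.1, 20.5 and 18.9 FPKM with DMSO, and neither measure overlapped. TSEN15, a subunit of the tRNA splicing endonuclease, had a share of 73.5%, 79.1% and 16.3% with verteporfin and 0.09%, 4.51% and 8.80% with DMSO, so that 1 verteporfin library lay close to the DMSO libraries. BDH2, a dehydrogenase, had 1.61, 7.62 and 5.65 FPKM of retained-intron transcripts with verteporfin. With DMSO these were listed at 0 in libraries 1 and 3 and at 0.214 FPKM in library 2. The retained-intron transcripts of BDH2 too were listed only for their verteporfin level and had to differ.

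**Figure D4:**
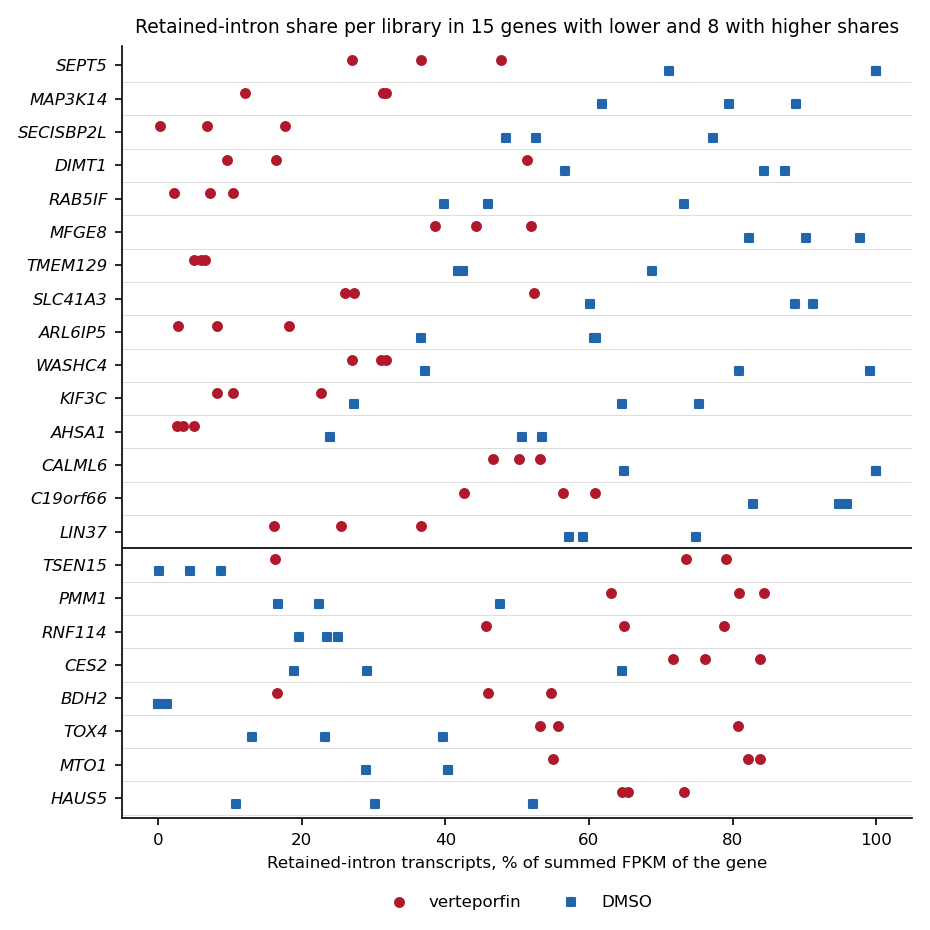
Summed retained-intron share of each gene (horizontal axis, percent of the gene's summed FPKM) in every library, verteporfin as circles above DMSO as squares. The 15 genes above the line were picked for lower and the 8 below it for higher shares with verteporfin without overlap, and none passed the test (adjusted p of 0.497 to 0.716 by limma).

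Among ribosomal protein genes, the retained-intron share was lower in more genes than it was higher. Of 79 on the list, 67 could be tested. Without overlap between the groups, 15 (22.4%) had a lower share and 0 a higher one with verteporfin, against 6.25% lower and 6.05% higher of all genes tested. The difference was below 0 in 51 of 67, and the median difference was −1.75 points, against −0.04 points over all genes. The median share over these genes was 8.67%, 8.38% and 8.41% with verteporfin and 11.3%, 9.61% and 10.7% with DMSO, with no overlap. Retained-intron transcripts as percent of the summed FPKM of the same genes did overlap, at 12.1%, 15.2% and 14.4% with verteporfin and 14.97%, 15.8% and 17.3% with DMSO. None passed by limma (smallest adjusted p of 0.716), and RPL22, RPL35 and RPL11 were lower at an unadjusted p under 0.05. The list was chosen with results of these data known, so its direction is a description.

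The 15 genes were RPL35, RPS13, RPL11, RPL22, RPL13A, RPL24, RPL23, RPL3, RPS15, RPLP2, RPS25, RPS3A, RPL34, RPL6 and RPS28. RPL35 had the largest difference of these 15, with a retained-intron share of 9.12%, 3.34% and 12.3% with verteporfin and 21.0%, 15.5% and 24.7% with DMSO, and its retained-intron FPKM did not overlap either. RPL11, known to bind MDM2 when ribosome assembly fails, had a share of 3.39%, 8.10% and 2.62% with verteporfin and 9.88%, 18.3% and 10.7% with DMSO. Its main retained-intron transcript, ENST00000482370, ends 38 bases into an intron and took 2.94%, 3.85% and 0.53% of the gene with verteporfin and 8.92%, 13.1% and 7.4% with DMSO. RPL22 had a share of 5.92%, 2.65% and 6.93% with verteporfin and 12.6%, 10.1% and 16.4% with DMSO. RPL13A, at 14.4%, 18.7% and 11.2% with verteporfin and 23.3%, 19.6% and 24.3% with DMSO, was separated by less than 1 point between its closest libraries. Its transcript ENST00000479992, with the retained intron of 177 bases shown above, took 7.08%, 3.56% and 4.73% of the gene with verteporfin and 15.5%, 6.01% and 11.1% with DMSO, which overlapped. RPL24, at 13.2%, 19.1% and 20.8% with verteporfin and 22.4%, 28.5% and 25.3% with DMSO, was also separated, although its main transcript ENST00000464595 overlapped.

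In sum, the retained-intron FPKM of these genes was not separated. Retained-intron transcripts of the 67 genes summed to 3445, 3955 and 3408 FPKM with verteporfin and 3294, 3949 and 3641 FPKM with DMSO. Their other transcripts summed to 24914, 22011 and 20329 FPKM with verteporfin and 18711, 21102 and 17387 FPKM with DMSO. Both sums overlapped between the groups. Retained-intron FPKM was lower without overlap in 4 of the 67 genes and higher in 1, against 7.00% lower and 5.75% higher of all genes tested; the FPKM of other transcripts was lower in 0 and higher in 5, against 8.48% lower and 5.18% higher of all. Many ribosomal protein genes, and GAPDH, have processed pseudogenes of near-identical sequence, so their FPKM is uncertain. Among the 343 genes of at least 100 FPKM, 65 ribosomal protein genes had a lower share without overlap in 23.1% and a higher one in 0%, and the other 278 genes had 6.12% lower and 5.04% higher.

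**Figure D5:**
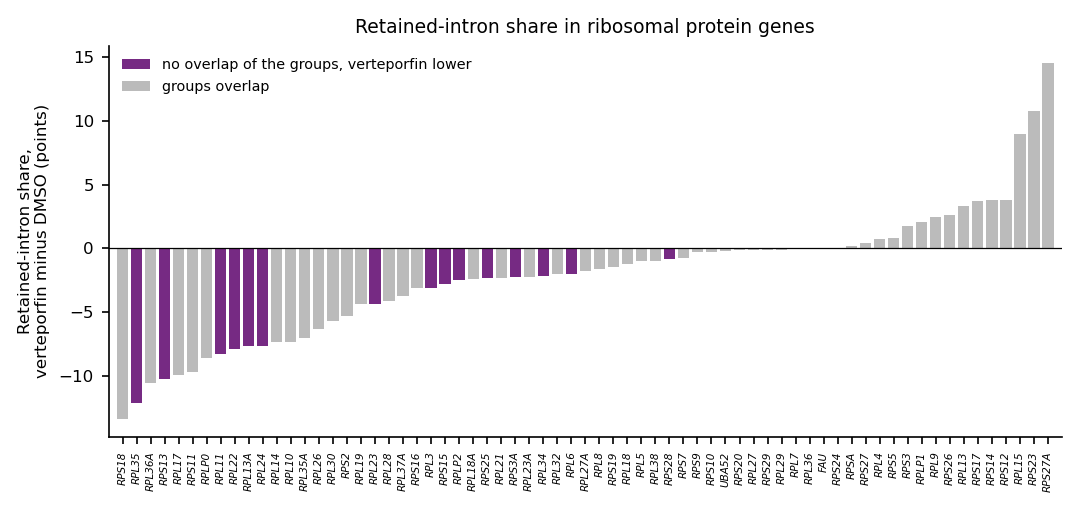
Difference in summed retained-intron share (vertical axis, verteporfin minus DMSO, percentage points) for the 67 ribosomal protein genes tested, ordered by size. Purple bars mark the 15 genes in which every verteporfin library lay below every DMSO library; grey bars overlap, and 51 of 67 differences are below 0.

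The machinery that acts on introns gave no call by level. Of 135 genes of the lists of SR proteins, CLK and SR kinases, hnRNP proteins, major and minor spliceosome, nonsense-mediated decay and nuclear RNA decay, 0 were called by limma on summed FPKM, against 0.0154% called higher and 0 called lower of all 12952 genes. At an unadjusted p under 0.05, 8 (5.93%) were lower and 1 (0.741%) higher, against 4.48% lower and 4.36% higher of all genes. Without overlap, 15 (11.1%) were lower and 3 (2.22%), CLK1, CLK3 and DHX8, higher, against 7.74% lower and 6.49% higher of all genes. The 1 gene higher at an unadjusted p under 0.05, CLK1, had 26.6, 36.2 and 54.0 FPKM with verteporfin and 20.7, 16.7 and 22.03 FPKM with DMSO, without overlap (limma, log2 fold change of 0.89, adjusted p of 0.46). CLK1 encodes a kinase of SR proteins whose own transcript is known for detained introns. SNRNP70, of the U1 particle that reads donor sites, had 120, 84.6 and 130 FPKM with verteporfin and 232, 155 and 187 FPKM with DMSO, also without overlap (limma, log2 fold change of −0.78, adjusted p of 0.474). SNRNP70 was named after its values were seen, as were the genes named for their contribution to the library share, the ribosomal protein genes and the single list genes below.

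Retained-intron shares of the same lists also gave no call. Among SR proteins 0 of 14 genes were separated in either direction, among CLK and SR kinases 0 of 6 and among known detained-intron genes 0 of 8, with median differences of 3.403, −0.23 and 3.52 points. CLK1 had a retained-intron share of 33.0%, 60.2% and 35.4% with verteporfin and 21.4%, 38.7% and 35.2% with DMSO, which overlapped, while its retained-intron FPKM, at 8.77, 21.8 and 19.1 with verteporfin and 4.44, 6.44 and 7.76 with DMSO, did not. CLK3 was similar, with retained-intron FPKM of 42.0, 19.3 and 19.9 with verteporfin and 15.8, 14.3 and 13.5 with DMSO and other transcripts that were also higher without overlap. The shares of CLK4, DYRK1A and SRPK1 overlapped, as did those of SRSF9, TRA2B, SRSF5, SRSF3 and RBM39 among SR proteins. DYRK1A ranged from 46.2% to 89.5% with verteporfin and from 46.8% to 95.1% with DMSO, with the lowest value in library 2 of both groups. Of the other detained-intron genes named by rule, DDX5, an RNA helicase, OGT, the O-GlcNAc transferase, and MAT2A, which makes S-adenosylmethionine, had overlapping shares.

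In the remaining machinery lists few genes were separated, where 6.25% of all genes were lower and 6.05% higher. In the major spliceosome 2 of 25 genes had lower shares, both of the U2 particle that binds the branch site: SF3B2, at 10.8%, 7.92% and 8.61% with verteporfin and 16.1%, 11.2% and 12.6% with DMSO, and SF3A2, at 8.52%, 11.9% and 11.3% with verteporfin and 11.9%, 13.0% and 13.0% with DMSO. HNRNPK was 1 of 15 hnRNP genes and had a higher share, at 22.7%, 20.6% and 22.5% with verteporfin and 15.5%, 11.9% and 13.7% with DMSO. SNRNP25 (1 of 5 minor spliceosome genes) and MAGOHB (1 of 13 nonsense-mediated decay genes), a part of the exon junction complex, had higher shares, and EXOSC3 (1 of 13 nuclear decay genes), of the RNA exosome, a lower one. None of these passed by limma, with adjusted p of 0.628 to 0.908. The only retained-intron transcript of MAGOHB was at 0.359, 1.62 and 0.827 FPKM with verteporfin and 0, 0.137 and 0 FPKM with DMSO. It was listed only for its verteporfin level and had to differ, so the higher share of MAGOHB is a description.

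Genes of the ATF4 stress response followed no single pattern in their retained-intron transcripts. DDIT4, an inhibitor of mTORC1 signaling and 1 of 2 genes called by summed FPKM (limma, log2 fold change of 2.48, adjusted p of 0.0441), had retained-intron FPKM of 14.6, 22.5 and 51.6 with verteporfin and 8.60, 7.14 and 9.28 with DMSO, higher without overlap. Its other transcripts were at 245, 170 and 279 FPKM with verteporfin and 41.6, 27.9 and 42.2 FPKM with DMSO, so the retained-intron share was lower, at 5.63%, 11.7% and 15.6% with verteporfin and 17.1%, 20.4% and 18.01% with DMSO (limma, adjusted p of 0.798). The transcript ENST00000471240, which ends 214 bases into an intron, was at 7.65, 12.8 and 29.1 FPKM with verteporfin and 4.71, 4.36 and 7.01 FPKM with DMSO. MARS, the methionyl-tRNA synthetase, was the 1 gene of this list with a higher share, at 37.6%, 37.6% and 44.6% with verteporfin and 26.7%, 36.2% and 32.0% with DMSO. In PHGDH, of serine synthesis, and SLC3A2, the heavy chain of amino acid transporters, retained-intron FPKM was higher without overlap and the shares overlapped. GARS, the glycyl-tRNA synthetase, overlapped in both. Of 15 genes of this list tested for share, 1 was lower and 1 higher without overlap, near the 6.25% and 6.05% of all genes, and the median difference was 0.34 points.

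In the B lineage, 2 of 14 genes tested had a lower share and 0 a higher one, against 6.25% and 6.05% of all genes. BLNK, the adaptor of the pre-B-cell receptor, had 25.1%, 26.8% and 30.04% with verteporfin and 43.2%, 32.7% and 36.1% with DMSO. PAX5, the factor that holds B-cell identity, had 12.4%, 7.77% and 11.0% with verteporfin and 18%, 15.8% and 13.5% with DMSO. The adjusted p were 0.83 and 0.818 by limma. None of 8 Hippo core genes was separated in either direction.

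Long and short retained-intron transcripts were also described apart. The 4357 retained-intron transcripts of at least 1200 bases had a median share of 8.81% with verteporfin and 7.79% with DMSO, and 4.73% of them were lower and 7.85% higher without overlap. The 5584 under 600 bases had a median of 4.89% with verteporfin and 4.91% with DMSO, with 6.57% lower and 5.52% higher. Sorted by the shortest whole intron they hold, transcripts with one over 300 bases were lower in 5.004% and higher in 8.31%, and those with one of at most 100 bases were lower in 6.84% and higher in 5.24%, against 5.91% and 6.22% of all members tested. Introns that start with GTAAG made up 17.4% of those held whole in genes with a lower share, 19.7% in genes with a higher share and 16.9% in all member genes, and those that start with GTGAG 33.6%, 30.6% and 32.5%. Over all introns held whole, the median was 234 bases in genes with a lower share and 280 bases in genes with a higher share. It was 246 bases in all member genes. Transcripts of a gene share exons and reads and are not independent, and no test was made of these classes.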

How the data were processed

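Total RNA from NALM6 cells was sequenced with a stranded library kit, per the labels' protocols. The deposited values are FPKM per transcript in 6 libraries, as the authors made them; HISAT2 2.1.0, StringTie 1.3.3, STAR, edgeR, cutadapt, FastQC and the build hg18 are credited, without roles, in the submitters' processing notes, while the transcript identifiers carry a GRCh37 tag. A further 4765 entries with whole numbers were not used. Transcript types came from GENCODE 29 (GRCh38), joined by identifier without version, which matched 61975 of 62250 entries (275 unmatched).

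limma 3.58.1 with a variance trend (R 4.3.3) was fitted to log2(FPKM + 1) for transcripts and gene sums averaging 0.5 FPKM or more, and to shares in percent for genes whose sum averaged 1 FPKM or more, with Benjamini-Hochberg adjustment over all features tested and a threshold of 0.05. A fold change on this scale understates that of low transcripts. Values per library were compared by exact 2-sided permutation (scipy 1.17.1). Replicate numbers were not used in these fits. Named were all called members, up to 15 lower and 8 higher genes of at least 5 FPKM by largest share difference without overlap, the 10 members of highest FPKM, and up to 5 genes per list of SR proteins, CLK and SR kinases, detained introns and ATF4 targets. The members and lists were chosen with earlier results of these data known. The fits were tested on simulated data. Alternatives covered pseudocount, filters, scaling, variance model, share scale, replicate block and libraries left out.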

Additional observations from a re-analysis of the deposited data

How the results depend on the processing

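The lower library share kept its direction under every alternative run, from −1.73 to −1.01 points, with −1.01 points within genes that list both kinds of transcript. Calls by FPKM were 2 without a variance trend and 2 with a pseudocount of 0.1, 0 to 0 with each library left out in turn and 0 without both libraries numbered 2, a setting chosen after seeing the data. Calls by share were 1 without a trend and 2 (AHSA1 and NEK9) as a log ratio. Each of these 2 transcripts was at or close to 0 throughout 1 group, and so was listed only for its level in the other. The replicate block gave 0 calls by FPKM, with an adjusted p of 0.252 for AHSA1 by limma. Deviations of log2(FPKM + 1) from the group mean had Pearson correlations of 0.132, 0.233 and 0.0355 between same-numbered libraries 1, 2 and 3. Between libraries of different numbers they ran from −0.176 to 0.0561. The labels do not say that equal numbers mark pairs, so the main fits did not pair them. Some values that did not pass changed sign with 1 library left out. Their share differences, in points, ran from −1.44 to 17.7 for PHGDH, −16.5 to 1.80 for SRPK1, −1.59 to 17.6 for GARS, −0.531 to 3.17 for DDX5, −4.07 to 6.65 for SRSF3, −9.08 to 12.9 for CLK4, −5.14 to 2.27 for TRA2B, −18.7 to 11.1 for DYRK1A, −1.996 to 5.14 for SLC3A2 and −3.86 to 2.65 for CLK3. The log2 fold changes of the abundant transcripts ran from −0.54 to 0.00292 for ACTB, −0.51 to 0.33 for ENO1, −1.52 to 0.29 for PTMA and −0.16 to 0.92 for RPS18. Single-gene contributions to the library share, recomputed so after seeing the data, changed sign for UNG (−0.0294 to 0.000894 points) and RACK1 (−0.0233 to 0.00207). Without both libraries numbered 2, sign changes were seen for the shares of SRPK1 (5.10 points), DDX5 (−1.66), SRSF3 (7.201), RBM39 (−2.50) and SLC3A2 (−2.14) and for ENO1 (log2 fold change of 0.39). The cause was not tested. Over single genes and transcripts, 716 values kept direction and side of the threshold, 8 lost and 5 gained a call and 31 changed sign. The lost calls were all of the AHSA1 transcript, and the gained ones were of NEK9 or AHSA1. Most kept values were uncalled in the main fit and stayed so, which is no measure of stability. With 3 libraries a group exact tests cannot go below 0.1, and with no counts the error from depth cannot be given.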

Other observations

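Transcripts listed at 0 throughout 1 group entered the table only through the other group, and DMSO libraries list more zeros among retained-intron and protein_coding transcripts, so the counts that follow are a description with no test. Of 15830 retained-intron transcripts, 1 was listed at 0 in all 3 verteporfin libraries and above 0 in all 3 DMSO libraries, while 69 (0.436%) were listed at 0 in all 3 DMSO libraries and above 0 in all 3 verteporfin libraries. Among protein_coding transcripts the counts were 36 (0.107%) and 473 (1.40%). A further transcript that 2 alternatives called by FPKM was in NEK9, which encodes a mitotic kinase. The NEK9 transcript ENST00000557026, with 5177 bases in 16 exons, was at 6.26, 8.33 and 7.91 FPKM with verteporfin and listed at 0 in all 3 DMSO libraries. It did not pass in the main fit, but did without a variance trend and with a pseudocount of 0.1. It was listed only for its verteporfin level and had to differ, so these calls are a description.

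The gene with the smallest p for summed share was PNPLA8, a phospholipase, chosen after its values were seen. Its share was 19.9%, 12.2% and 34.2% with verteporfin and 100% in all 3 DMSO libraries (limma, adjusted p of 0.122). Its retained-intron FPKM was 0.339, 0.690 and 0.993 with verteporfin and 0.996, 0.725 and 0.516 with DMSO, so it overlapped. The other PNPLA8 transcripts were at 1.37, 4.97 and 1.91 FPKM with verteporfin and listed at 0 with DMSO. They were thus listed only for their verteporfin level and had to differ, so the share and its p are a description.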
